A study of Homo sapiens with 10 samples.

Results

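The small nuclear and nucleolar RNA genes of U2OS cells were followed through depletion of the isoforms of the histone variant H2A.Z. Members were the genes of the count table named SNORA, SNORD, SCARNA, RNU, RN7S or VTRNA with a number, together with RMRP, RPPH1 and TERC, that had at least 100 counts summed over the 10 libraries, while host genes whose names end in HG were left out. Of 23089 genes, 378 had such a name and 258 of these reached the minimum. They were 133 SNORD, 84 SNORA, 24 SCARNA, 10 RNU, 3 RN7S and 2 VTRNA genes, RMRP and RPPH1. Members were thus chosen by their name and their total count, which is given as a description only. The members just inside the minimum were SCARNA23 with 100 counts, SNORD124, SNORA60 and SNORD69 with 102 each, and SNORD116-23 with 105. Just outside were SNORD103C with 98 counts, SCARNA15 and SNORD57 with 97 each, VTRNA1-1 with 95 and SNORA69 with 92.

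SNORD genes encode C/D box small nucleolar RNAs, most of which guide 2'-O-methylation of ribosomal RNA, and SNORA genes encode H/ACA box RNAs, most of which guide pseudouridylation. SCARNA genes encode the related guides of Cajal bodies, and nearly all of these RNAs are released from the introns of host genes after splicing. The others mostly have promoters of their own: RNU genes give the RNA cores of the spliceosome, RN7SL the RNA of the signal recognition particle, RN7SK the RNA that holds the elongation factor P-TEFb inactive, RMRP and RPPH1 the RNAs of RNase MRP and RNase P, and VTRNA the vault RNAs.

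U2OS, a human osteosarcoma cell line, was transfected for 3 days with siRNA against H2A.Z.1 (siH2A.Z.1), against H2A.Z.2 (siH2A.Z.2), against both (siH2A.Z.1+siH2A.Z.2), or with either of 2 control siRNAs (siCtrl 3 and siCtrl 4). The labels write the depletions as siH2A.Z1 and siH2A.Z2. Each condition had 2 strand-specific libraries of rRNA-depleted total RNA. By the study's methods these samples were transfected in parallel, and the p-values measure the spread between samples handled in this way. Except in the test between the controls, both control siRNAs were pooled, so that spread also holds the difference between them. An effect of an siRNA other than on its target cannot be told apart from depletion. Library totals lay between 16716990 and 26946836 counts. Levels are given as CPM, the count of a gene scaled to 1000000 counts of the normalised library total, and the libraries of the combined depletion are called the combined libraries. A gene was called changed at an adjusted p below 0.05 (edgeR quasi-likelihood test, Benjamini-Hochberg over all genes tested) with a log2 fold change beyond 0.32 in either direction, and depletions were compared with the 4 control libraries pooled. Counts of calls under other settings or without single libraries have no share of all genes beside them. They show only how the calls depend on the processing.

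The targeted genes followed their labels. H2AFZ, which encodes H2A.Z.1, stood at 279 and 277 CPM with siCtrl 3, 204 and 226 with siCtrl 4, 19.6 and 19.1 in the siH2A.Z.1 libraries, 241 and 261 in the siH2A.Z.2 libraries and 22.5 and 22.1 in the combined libraries. H2AFV, which encodes H2A.Z.2, stood at 248 and 239 CPM with siCtrl 3, 143 and 147 with siCtrl 4, 200 and 183 in the siH2A.Z.1 libraries, 63.8 and 65.5 in the siH2A.Z.2 libraries and 80.4 and 71.1 in the combined libraries. With siH2A.Z.2 its log2 fold change, -1.59, missed the threshold (edgeR adjusted p = 0.0754), and H2AFV itself was lower with siCtrl 4 than with siCtrl 3, with a log2 difference of -0.75. Among lineage markers, SPARC stood at 1556 to 2129 CPM, COL1A1 at 373 to 1405 and VIM at 1502 to 3550, RUNX2 was at 10.8 CPM or more in every library, ALPL ranged from 0.402 to 8.12, and COL1A2 and SP7 reached at most 1.247 and 0.107. The markers EPCAM, CDH1, PTPRC and PECAM1 of other cell types stayed at or below 3.99 CPM. Telomerase RNA (TERC) had 3 counts and TERT 5 counts over all libraries, so TERC is no member.

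The members took 6.96% to 10.1% of the counts of a library. RN7SL1 and RN7SL2 held 63.1% of the members' counts and the 10 most abundant members 97.3%, whereas the median member had 473.5 counts over all libraries and 132 members had 100 to 500. Per annotated length, the mean level was 115488 CPM per kb for RN7SL1, 28504 for SNORD3A (the U3 RNA of ribosomal RNA cleavage), 24504 for RMRP and 11410 for RPPH1. Class medians were 30.6 CPM per kb for SNORA, 17.6 for SCARNA and 16.6 for SNORD genes. Reads of an unspliced intron cannot be told apart from those of the small RNA inside it, and RNAs shorter than a library fragment are poorly recovered, so these are levels in the libraries and not of mature RNAs. In such bulk samples, fewer cells with an RNA and less RNA per cell cannot be told apart either.

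The members' share of counts was 9.25% ± 0.838 (SD, n = 2) with siCtrl 3, 9.42% ± 0.990 with siCtrl 4, 9.09% ± 0.862 in the siH2A.Z.1 libraries, 7.45% ± 0.690 in the siH2A.Z.2 libraries and 8.33% ± 0.266 in the combined ones. The siH2A.Z.2 libraries, at 7.94% and 6.96%, lay below the other 8, of which the lowest stood at 8.15%. Without RN7SL1 and RN7SL2 they stood at 2.92% and 2.28%, and the second siCtrl 3 library stood at 2.70%, so that the groups overlapped.

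Replicate libraries differed more in these genes than in others. The median absolute log2 difference between the 2 libraries of a condition was 0.23 to 0.33 for members and 0.09 to 0.14 for all genes tested, and for the RNU genes it reached 0.94 with siCtrl 3. The second siCtrl 3 and second siH2A.Z.2 libraries were low in RNU genes, with median log2 deviations from the mean of all libraries of -0.56 and -0.73, and the first siCtrl 4 and second siH2A.Z.1 libraries were high, at 0.65 and 0.68. The part of this spread in the results that follow was not tested beyond leaving out each library in turn.

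**Figure D1:**
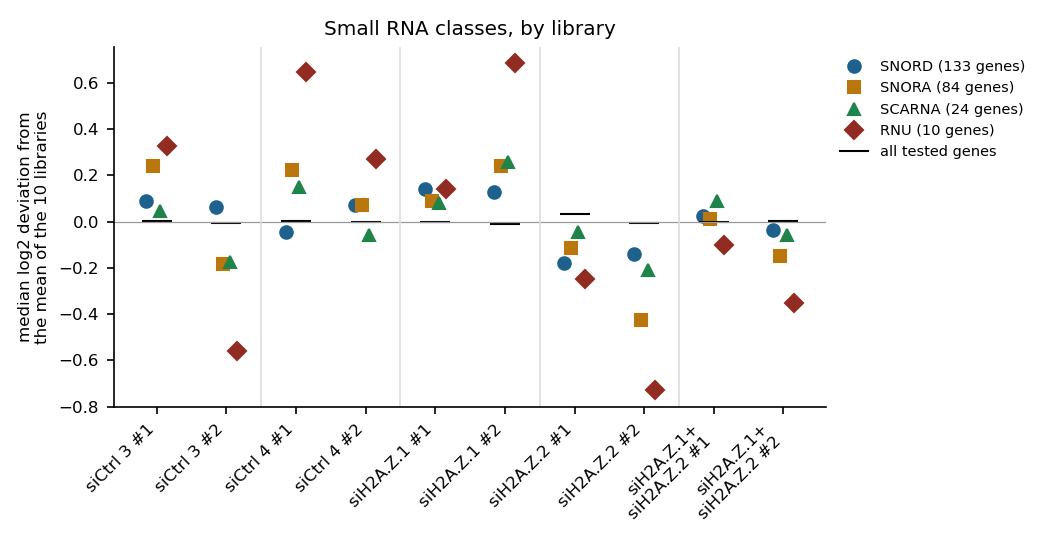
Median log2 deviation from the mean of the 10 libraries (y axis) for each library (x axis), by class of small RNA gene and for all tested genes. RNU genes range from -0.73 in the second siH2A.Z.2 library to 0.68 in the second siH2A.Z.1 library, while all tested genes stay near 0.

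Upon H2A.Z.1 depletion, few small RNA genes changed. Of 257 members tested, 6 rose and 3 fell, while 12.2% of all genes tested rose and 15.7% fell. The members were less precisely measured, with a median standard error of 0.30 on the log2 scale against 0.19 for all genes. Their median log2 fold change was 0.12 against -0.02 for all genes, and 161 were higher and 96 lower. The risers were SCARNA9, SNORD36A, SNORD16, SNORA6, SNORA12 and SCARNA10, each within an intron. VTRNA1-3, SNORD3D and SNORA104 fell, of which VTRNA1-3 also lies within an annotated intron. No member was called without either siH2A.Z.1 library, and 4 and 5 were called without the second or first siCtrl 4 library. Against siCtrl 3 alone 17 rose and 9 fell, and against siCtrl 4 alone 19 rose and 17 fell. The shares of all genes called in these fits are not given here, so these counts are no result about the members.

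Upon H2A.Z.2 depletion, 215 of 257 members were lower and 42 higher, although 1 alone passed the test. SNORD17 fell and no member rose, while 0.605% of all genes tested rose and 0.179% fell. An unadjusted p below 0.05 was found for 44 of the 257 members, 41 of them lower and 3 higher, and for 2223 of all 16188 genes, 903 of them lower and 1320 higher. The median log2 fold change was -0.36, against 0.00 for all genes, of which 50.3% were lower. By class the median was -0.30 for SNORD, -0.40 for SNORA, -0.17 for SCARNA and -0.82 for the 10 RNU genes, all lower. The calls counted next, under other settings, have no share of all genes beside them and are no result about the members. Against siCtrl 3 alone 10 members fell and 1 rose, against siCtrl 4 alone 41 fell and 2 rose, DESeq2 called 5 lower, and without any 1 of the 6 libraries no member was called.

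Combined depletion left 93 members higher and 165 lower, with a median log2 fold change of -0.15 against -0.01 for all genes. SNORA12, SNORD18C and SNORD116-14 rose and VTRNA1-3, SNORD1C and SNORA71C fell, making 3 in each direction of 258, while 7.77% of all genes tested rose and 9.35% fell. The RNU genes were lower in 10 of 10 cases, with a median of -0.42 and none called. Calls under other settings are again counted without the share of all genes. Leaving out single libraries gave between 0 and 5 calls, and against siCtrl 3 alone 10 members rose and 18 fell, against siCtrl 4 alone 13 and 42.

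The controls themselves differed. With siCtrl 4 against siCtrl 3, SNORA24, SNORA67, SNORA71A and SNORA74B were higher and 7 members lower (SNORD116-22, SNORD1B, SNORD28, SNORA79, SNORD134, SNORD49A and SNORA104), while 17.2% of all genes tested were higher and 17.3% lower. The 4 log2 differences lay between 0.43 and 0.65 and the 7 between -1.76 and -0.39. The median over the 258 members was 0.02, with -0.13 for SNORD, 0.16 for SNORA and 0.44 for RNU genes. It was -0.10 without the second siCtrl 3 library, with 3 calls, while 31 members were called without the first siCtrl 3 library and 4 without the first siCtrl 4 library.

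The direct comparison of the single depletions uses no control library for its difference. Upon H2A.Z.1 depletion 35 members were higher and 2 lower than upon H2A.Z.2 depletion, while 13.9% of all genes tested were higher and 18.4% lower. The median log2 difference was 0.48 against -0.01 for all genes, and 220 of 258 members were higher. The 35 were 18 SNORD, 12 SNORA, 2 SCARNA and 3 RNU genes, and the 2 lower members were SNORA104 and SNORD3D. Calls numbered 9 without the second siH2A.Z.1 or second siH2A.Z.2 library and 16 without the first siH2A.Z.2 library. SNORD17, SNORD1A and SNORA104 were called without each of the 10 libraries in turn.

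**Figure D2:**
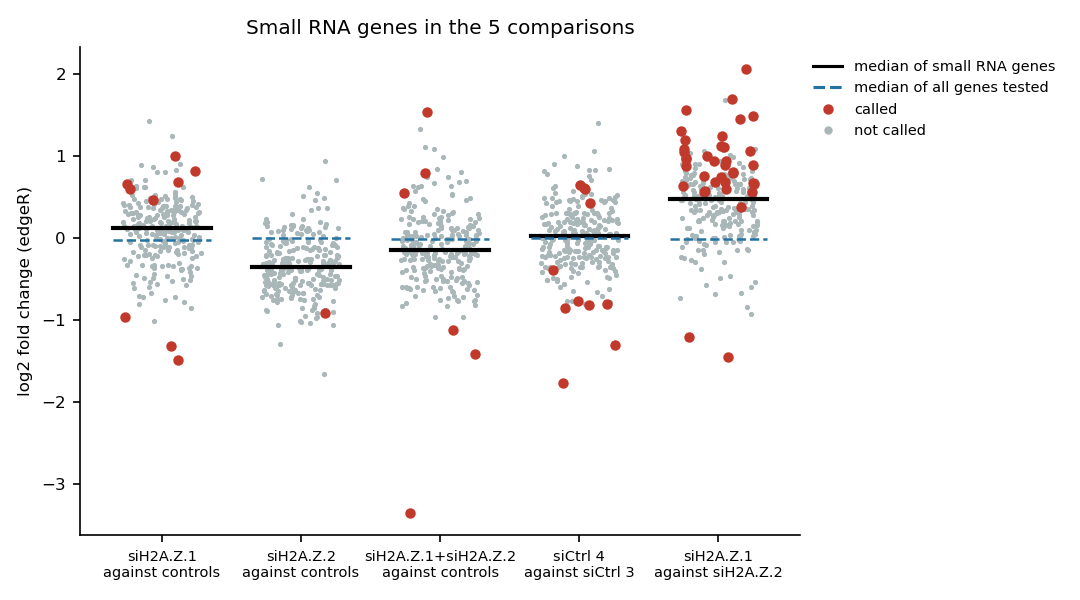
Log2 fold change (y axis) of each small RNA gene in the 5 comparisons (x axis), with called genes in red, others in grey, the members' median as a black line and that of all tested genes as a blue dashed line. The black line sits at -0.36 for siH2A.Z.2 against controls and at 0.48 for siH2A.Z.1 against siH2A.Z.2, and VTRNA1-3 is at -3.35 upon combined depletion.

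Vault RNAs are short RNA polymerase III transcripts, part of which are bound in the vault particle. VTRNA1-1 (chr5:140711276-140711373), VTRNA1-2 (chr5:140718926-140719013) and VTRNA1-3 (chr5:140726159-140726246) lie in a row on the plus strand (hg38, sequences from the reference genome). They are shown because the neighbours share much of their sequence, and capitals mark GTTCGANNC, the core of the B box of polymerase III promoters.
VTRNA1-1: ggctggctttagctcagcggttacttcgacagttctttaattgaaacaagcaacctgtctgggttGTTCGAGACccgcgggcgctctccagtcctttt
VTRNA1-2: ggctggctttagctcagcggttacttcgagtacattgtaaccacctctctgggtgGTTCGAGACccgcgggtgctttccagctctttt
VTRNA1-3: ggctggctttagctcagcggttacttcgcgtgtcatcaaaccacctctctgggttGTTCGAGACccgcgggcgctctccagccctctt
VTRNA1-2 and VTRNA1-3 are identical at 86.4% of 88 positions. The motif was on the transcribed strand of 2 of the 247 members of known strand, both of them vault RNAs, and on either strand of 0.83% of 35116 RefSeq promoter windows of 300 bases.

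VTRNA1-3 was the only member called in 2 depletions with a fall. It lies within an intron of an annotated gene on the same strand, whose unspliced reads cannot be told apart from its own. It had 65 and 19 counts with siCtrl 3, 46 and 40 with siCtrl 4, 10 and 16 in the siH2A.Z.1 libraries, 21 and 29 in the siH2A.Z.2 libraries and 6 and 1 in the combined libraries. In CPM the controls lay between 1.03 and 2.54, both siH2A.Z.1 libraries lay below them at 0.534 and 0.760, and the combined libraries were the lowest at 0.268 and 0.0574. The log2 fold change was -3.35 ± 0.63 (SE) upon combined depletion (edgeR adjusted p = 0.0167), -1.48 ± 0.44 upon H2A.Z.1 depletion (adjusted p = 0.0437) and -0.88 ± 0.40 upon H2A.Z.2 depletion (adjusted p = 0.391). As 7 counts against 170, the level upon combined depletion was 0.0945 of that in controls, with an exact 95% interval of 0.0374 to 0.199 for counting error only. Without either combined library the adjusted p was 0.0929 or 0.129, and the call upon H2A.Z.1 depletion was kept only without the second siCtrl 3 library.

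The neighbouring copies gave smaller values. VTRNA1-2 had log2 fold changes of -0.16, -0.17 and -0.19 in the H2A.Z.1, H2A.Z.2 and combined depletions and was not called. VTRNA1-1, below the minimum, had 50 counts in the control libraries and 10 upon combined depletion, a ratio of 0.459 with an interval of 0.207 to 0.916. The gene of the major vault protein, MVP, stood at 172, 157, 204 and 169 CPM in the controls, 81.2 and 69.0 in the siH2A.Z.1 libraries, 157 and 137 in the siH2A.Z.2 libraries and 83.0 and 94.5 in the combined libraries. MVP fell upon H2A.Z.1 depletion (log2 fold change -1.22, edgeR adjusted p = 0.0017) and combined depletion (-0.97, adjusted p = 0.0067). Of the other genes listed for the vault, NSUN2 rose upon H2A.Z.1 depletion by 0.32 (edgeR adjusted p = 0.0478). PARP4, TEP1 and SSB were not called there, and none besides MVP was called upon combined depletion.

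None of the other RNAs with known polymerase III promoters was called in a depletion. RN7SK stood at 8304 to 11835 CPM in controls, 10514 and 11718 in the siH2A.Z.1 libraries and 8954 and 7576 in the siH2A.Z.2 libraries, where its log2 fold change was -0.30 ± 0.15 (edgeR adjusted p = 0.446). RN7SL1 stood at 34332 to 40610 CPM in controls and had log2 fold changes of -0.27, -0.27 and -0.33, the last with an adjusted p of 0.0642. RN7SL1 and RN7SL2 differ at 4 of 299 positions, and reads that fit such near-identical copies equally well are lost to both in the counting. RMRP ranged from 4719 CPM in the second siH2A.Z.2 library to 9727 in the first siCtrl 4 library, and RPPH1 from 2416 to 5497 between the same libraries.

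Both U4 genes, whose RNA chaperones U6 into the spliceosome, were lower upon H2A.Z.2 than upon H2A.Z.1 depletion. RNU4-1 (chr12:120293093-120293237) and RNU4-2 (chr12:120291759-120291903) lie on the minus strand, and they are printed because few bases separate their reads. Capitals mark the 4 of 145 positions at which they differ.
RNU4-1: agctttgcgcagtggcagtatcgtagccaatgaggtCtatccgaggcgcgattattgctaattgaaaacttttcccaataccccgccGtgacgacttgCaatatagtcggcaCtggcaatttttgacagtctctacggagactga
RNU4-2: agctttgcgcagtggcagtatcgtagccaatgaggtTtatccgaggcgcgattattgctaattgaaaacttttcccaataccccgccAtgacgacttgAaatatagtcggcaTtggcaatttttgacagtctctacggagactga
Counted from the 5′ end, with RNU4-1 first, the differences are C37T, G88A, C99A and C113T. Their summed level was 1567 and 770 CPM with siCtrl 3, 2055 and 1670 with siCtrl 4, 1747 and 2544 in the siH2A.Z.1 libraries, 999 and 549 in the siH2A.Z.2 libraries and 1580 and 1031 in the combined libraries. The second siCtrl 3 library lay below the first siH2A.Z.2 library, so controls and H2A.Z.2 depletion overlapped. RNU4-1 had log2 fold changes of 0.47, -1.02 and -0.22 in the H2A.Z.1, H2A.Z.2 and combined depletions and was not called. In the direct comparison RNU4-1 was higher upon H2A.Z.1 depletion by 1.49 ± 0.44 (edgeR adjusted p = 0.0297) and RNU4-2 by 1.45 ± 0.45 (adjusted p = 0.0339), and both calls were lost without the second siH2A.Z.1 or the second siH2A.Z.2 library.

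RNU12, the U12 RNA that pairs with the branch point of minor introns, was likewise lower upon H2A.Z.2 than upon H2A.Z.1 depletion. It stood at 105 and 64.1 CPM with siCtrl 3, 141 and 105 with siCtrl 4, 91.8 and 138 in the siH2A.Z.1 libraries, 58.2 and 41.7 in the siH2A.Z.2 libraries and 70.4 and 66.3 in the combined libraries. The siH2A.Z.2 libraries were the lowest of the 10, yet the log2 fold change of -1.05 ± 0.31 was not called (edgeR adjusted p = 0.227). The direct difference of 1.2004 ± 0.33 was called (adjusted p = 0.0217), but not without the second siH2A.Z.1 or second siH2A.Z.2 library. RNU11, RNU4ATAC, RNU6ATAC and the 4 RNU5 members were called in no comparison, with log2 fold changes from -0.90 to -0.47 upon H2A.Z.2 depletion and from -0.12 to 0.33 upon H2A.Z.1 depletion.

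**Figure D3:**
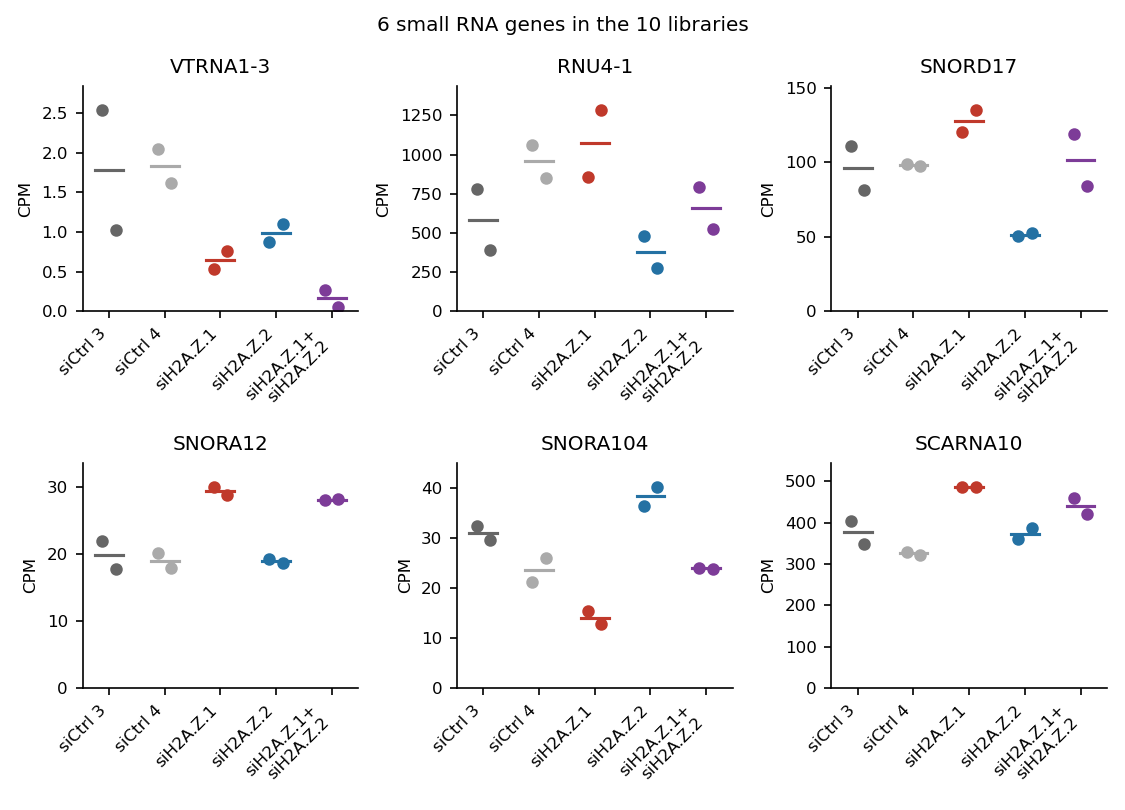
Level in CPM (y axis) of 6 small RNA genes in the 10 libraries, by condition (x axis), with points for libraries and bars for the mean of each condition. SNORD17 is at 50.2 and 52.5 CPM upon H2A.Z.2 depletion, below every other library, and VTRNA1-3 is lowest upon combined depletion.

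SNORD17, the member called upon H2A.Z.2 depletion, is a long C/D box RNA in an intron of SNX5 on the minus strand (chr20:17962710-17962946). It is printed with capitals for TGATGA in its first 20 bases and CTGA in its last 15, the C and D boxes.
SNORD17: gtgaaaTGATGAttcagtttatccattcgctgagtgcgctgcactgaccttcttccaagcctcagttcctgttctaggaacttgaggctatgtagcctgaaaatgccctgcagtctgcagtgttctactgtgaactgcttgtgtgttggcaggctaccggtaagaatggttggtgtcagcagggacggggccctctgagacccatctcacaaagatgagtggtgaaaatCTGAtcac
Of 115 SNORD members with an annotated strand, 69 (60.0%) held both motifs so placed and none held them on the opposite strand. SNORD17 stood at 111 and 81.6 CPM with siCtrl 3, 98.5 and 97.5 with siCtrl 4, 120 and 135 in the siH2A.Z.1 libraries, 50.2 and 52.5 in the siH2A.Z.2 libraries and 119 and 83.9 in the combined libraries. The siH2A.Z.2 libraries lay below the other 8. The log2 fold change upon H2A.Z.2 depletion was -0.92 ± 0.14 (edgeR adjusted p = 0.0488), and without single libraries the adjusted p rose to between 0.0881 and 0.533. The direct difference of 1.31 ± 0.18 between the single depletions was called throughout (adjusted p = 0.000742, at most 0.0109 without a library). SNX5 stood at 76.4 to 96.4 CPM and was called in no comparison.

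The copies of U3 differed in level by orders of magnitude. SNORD3A ranged from 4940 to 8164 CPM and was called in no comparison. SNORD3D, which differs from SNORD3A at 3 of 217 positions, stood at 2.27, 2.71, 2.14 and 3.15 CPM in controls, 1.01 and 1.04 in the siH2A.Z.1 libraries, 1.78 and 2.96 in the siH2A.Z.2 libraries and 1.88 and 1.32 in the combined libraries. SNORD3D fell by 1.32 on the log2 scale upon H2A.Z.1 depletion (edgeR adjusted p = 0.0142), and reads that miss the 3 positions cannot be told apart between these copies.

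Within SNHG16, a non-coding host, the snoRNAs SNORD1A (chr17:76561633-76561706), SNORD1B (chr17:76561108-76561193) and SNORD1C (chr17:76558790-76558869), taken as a sum, did not fall with the host upon H2A.Z.1 depletion, whereas host and sum were both lower in the siH2A.Z.2 and combined libraries. They are shown on the plus strand with the same boxes in capitals, of which the exact C box motif is found in SNORD1B alone.
SNORD1A: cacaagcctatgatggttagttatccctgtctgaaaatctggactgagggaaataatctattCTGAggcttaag
SNORD1B: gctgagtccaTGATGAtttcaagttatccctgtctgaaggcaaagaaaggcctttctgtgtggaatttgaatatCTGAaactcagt
SNORD1C: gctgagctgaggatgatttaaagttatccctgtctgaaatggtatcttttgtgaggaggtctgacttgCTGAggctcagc
SNHG16 stood at 274, 284, 261 and 282 CPM in controls, 51.1 and 58.3 in the siH2A.Z.1 libraries, 204 and 223 in the siH2A.Z.2 libraries and 47.5 and 48.7 in the combined libraries. SNHG16 fell by 2.34 on the log2 scale upon H2A.Z.1 depletion (edgeR adjusted p = 0.000172) and fell by 2.505 upon combined depletion (adjusted p = 0.000373). The 3 snoRNAs summed to 3.13, 3.41, 2.18 and 2.54 CPM in controls, 3.26 and 3.23 in the siH2A.Z.1 libraries, 1.70 and 1.78 in the siH2A.Z.2 libraries and 1.74 and 1.32 in the combined libraries. Their mean was 1.15 of that of the controls with siH2A.Z.1, 0.618 with siH2A.Z.2 and 0.544 with both siRNAs. Both the host and the sum lay below every control in the siH2A.Z.2 and combined libraries, and the sum lay within the range of the controls in the siH2A.Z.1 libraries. Relative to SNHG16 they stood at 0.837% to 1.199% in controls, 6.37% and 5.54% in the siH2A.Z.1 libraries and 3.67% and 2.71% in the combined libraries.

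Each of the snoRNAs had its own pattern. Their log2 fold changes upon H2A.Z.1 depletion ran from -0.70 to 0.62, with a median of 0.05 and none called. Upon H2A.Z.1 depletion SNORD1A was at 0.62 on the log2 scale relative to controls (edgeR adjusted p = 0.114) and was higher than upon H2A.Z.2 depletion by 1.69 ± 0.31 (adjusted p = 0.0031), while SNHG16 had a log2 difference of -1.96 in the same comparison. SNORD1C stood at 0.713 to 0.969 CPM in controls and at 0.268 and 0.345 in the combined libraries, where it fell by 1.41 on the log2 scale (adjusted p = 0.0382), a call lost without any 1 of the 6 libraries. SNORD1B stood at 0.938 and 1.19 CPM with siCtrl 3 and at 0.490 and 0.364 with siCtrl 4, the difference called between the controls. By annotation SNORD1C overlaps an exon, and the counting drops reads that overlap 2 genes.

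Levels of host and small RNAs also separated between the control siRNAs. SNHG3 stood at 197 and 220 CPM with siCtrl 3 and at 74.4 and 77.7 with siCtrl 4 (log2 difference -1.45, edgeR adjusted p = 6.61e-07), whereas its SNORA73A and SNORA73B, the U17 RNAs of 18S ribosomal RNA maturation, summed to 2330 and 1547 against 2437 and 1989 CPM. DANCR stood at 151 and 169 CPM against 58.5 and 54.6 (log2 difference -1.50, adjusted p = 1.51e-06), and its SNORA26 at 11.4 and 8.45 against 12.2 and 11.1. Neither SNORA73 gene nor SNORA26 was called between the controls. These host genes were chosen after their values were seen.

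**Figure D4:**
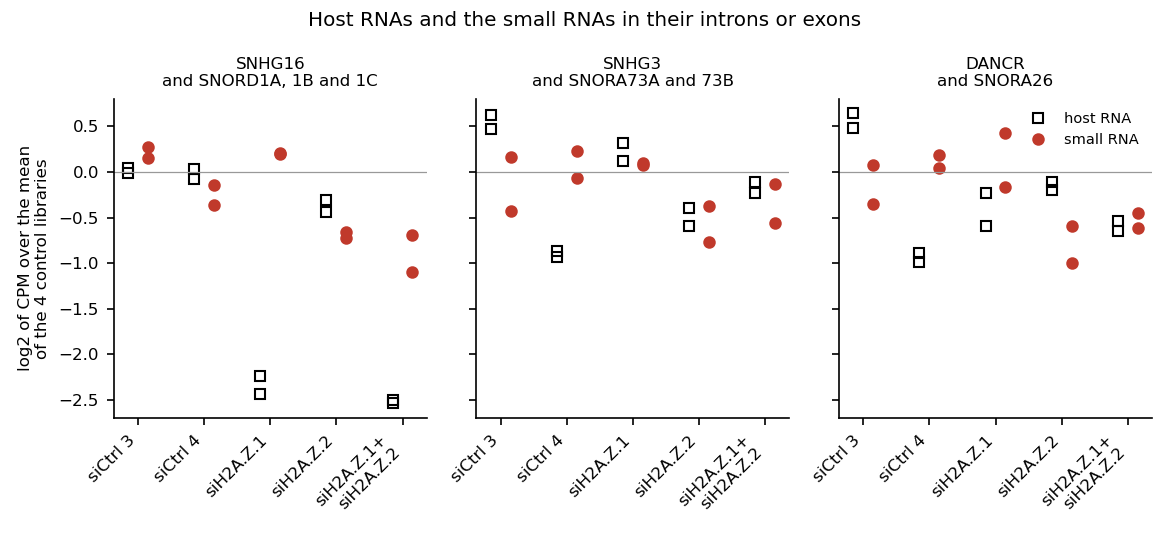
Log2 of CPM over the mean of the 4 control libraries (y axis) in each library (x axis) for 3 host genes (open squares) and the small RNAs inside them (red circles). SNHG16 is far below the controls in the siH2A.Z.1 and combined libraries while the sum of SNORD1A, SNORD1B and SNORD1C at H2A.Z.1 depletion is not, and SNHG3 and DANCR split the control siRNAs while their small RNAs do not.

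Across all members with a tested host, the changes of member and host were weakly correlated. Over 207 or 208 pairs, Pearson's r between the log2 fold changes of member and host was 0.10, 0.28, 0.31, 0.14 and 0.18, and Spearman's rho 0.11, 0.26, 0.18, 0.15 and 0.28, in the order of the comparisons above. The points share libraries, and members of 1 host share that host. Members were also less precisely measured than hosts, which holds such correlations down. Median standard errors upon H2A.Z.1 depletion were 0.30 for members and 0.12 for hosts. Of the 122 hosts, 20 rose and 10 fell upon H2A.Z.1 depletion (24.6%, against 28% of all genes called), none rose and 1 fell upon H2A.Z.2 depletion (0.82% against 0.785%), and 2 rose and 9 fell upon combined depletion (9.02% against 17.1%). In the direct comparison 36 hosts were higher and 13 lower upon H2A.Z.1 depletion (40.2% against 32.2%). Of the 208 members with a tested host, 30 were called there and 82 had a called host. Called together with their host were 17 members, 16 of them in the same direction. Most calls among members and hosts were upward there, and the overlap expected from these shares was not computed.

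SnoRNAs of GAS5, a non-coding host, and of RPL4, a ribosomal protein gene, were among the members called together with their host. GAS5 stood at 63.4, 72.7, 76.2 and 79.4 CPM in controls, 103 and 107 in the siH2A.Z.1 libraries, 54.7 and 55.7 in the siH2A.Z.2 libraries and 101 and 87.0 in the combined libraries. It rose upon H2A.Z.1 depletion by 0.52 ± 0.11 on the log2 scale (edgeR adjusted p = 0.0152) and was higher than upon H2A.Z.2 depletion by 0.93 ± 0.12 (adjusted p = 0.000603). The 10 SNORD members of the locus summed to 24.8 to 29.9 CPM in controls, 31.0 and 30.6 in the siH2A.Z.1 libraries, 19.97 and 18.6 in the siH2A.Z.2 libraries and 26.1 and 22.5 in the combined libraries. SNORD44, SNORD74, SNORD76 and SNORD80 were called higher in the direct comparison, by 0.69 to 0.94 on the log2 scale. RPL4 rose upon H2A.Z.1 depletion by 0.49 (adjusted p = 0.0099), as did its SNORD16 by 0.69 (adjusted p = 0.0481), which stood at 3.16 to 4.06 CPM in controls, 6.51 and 4.80 in the siH2A.Z.1 libraries and 2.36 and 2.39 in the siH2A.Z.2 libraries.

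The SNORD116 copies lie in tandem in the imprinted 15q11-q13 region and have no well-established target. SNORD116-14 (chr15:25080141-25080234) rose upon combined depletion, and SNORD116-23 (chr15:25091785-25091878), identical to it at 92.6% of 94 positions, was called in the direct comparison, so both are shown with the C and D boxes in capitals.
SNORD116-14: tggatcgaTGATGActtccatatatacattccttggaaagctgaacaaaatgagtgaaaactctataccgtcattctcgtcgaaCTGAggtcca
SNORD116-23: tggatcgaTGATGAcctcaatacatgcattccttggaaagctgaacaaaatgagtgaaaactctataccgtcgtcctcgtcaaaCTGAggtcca
SNORD116-14 stood at 0.323 to 0.624 CPM in controls and at 1.43 and 1.15 in the combined libraries, a log2 fold change of 1.53 ± 0.36 (edgeR adjusted p = 0.0322) that lost its call without 5 of the 6 libraries. The 10 members of the array summed to 5.70, 6.28, 5.75 and 5.53 CPM in controls, 9.18 and 10.5 in the siH2A.Z.1 libraries, 6.75 and 7.16 in the siH2A.Z.2 libraries and 10.1 and 10.9 in the combined libraries. The libraries of H2A.Z.1 and combined depletion lay above all others, by 1.69-fold and 1.80-fold over the controls in the means. The array was examined after its values were seen, so the sum has no test, and singly 10 of 10 were higher in both depletions with 0 and 1 called.

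PWARSN, a non-coding gene of the same region (chr15:24981994-24983790), stood at 5.58 to 6.99 CPM in controls, 11.4 and 10.4 in the siH2A.Z.1 libraries, 6.17 and 6.29 in the siH2A.Z.2 libraries and 11.4 and 9.36 in the combined libraries. It rose upon H2A.Z.1 depletion by 0.81 ± 0.15 on the log2 scale (edgeR adjusted p = 0.0105) and upon combined depletion by 0.76 ± 0.16 (adjusted p = 0.0228), and its log2 fold change with siH2A.Z.2 was 0.01. PWAR5 and IPW rose upon combined depletion by 0.73 and 0.63. SNRPN had 1 count and SNURF 5 counts in all. The annotated span of SNURF lies within that of SNRPN, and the counting drops reads over both. These counts therefore do not show whether either gene is expressed. SNHG14, the host of the array, was not analysed here.

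**Figure D5:**
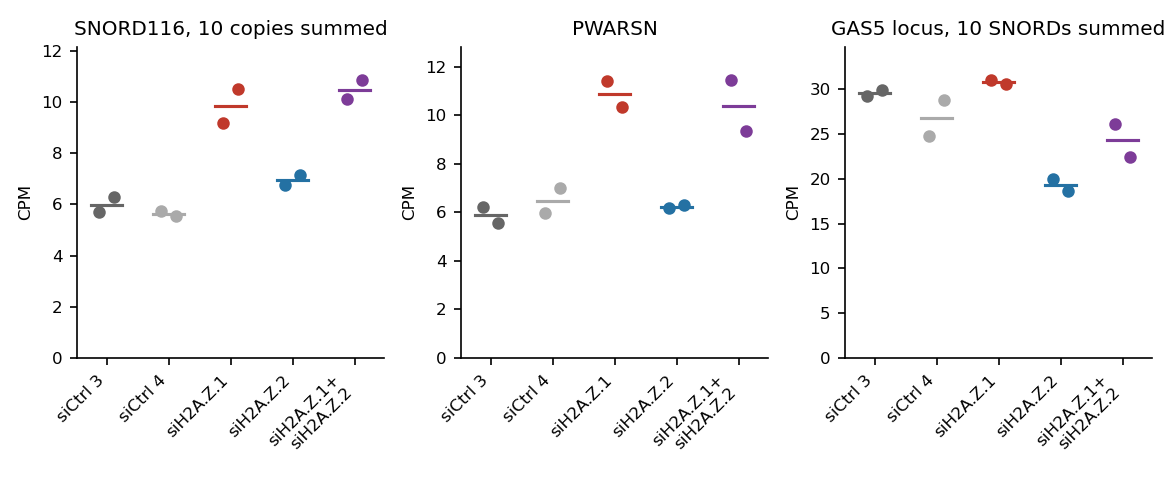
Level in CPM (y axis) by condition (x axis) of the 10 SNORD116 members summed, of PWARSN and of the 10 SNORD members of the GAS5 locus summed, with points for libraries and bars for the mean. The SNORD116 sum is at 9.18 to 10.9 CPM upon H2A.Z.1 and combined depletion and at 7.16 or lower elsewhere, and the GAS5 locus sum is lowest upon H2A.Z.2 depletion.

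Among H/ACA box RNAs, SNORA12 rose in 2 depletions and SNORA104 fell in 1. They are printed with the ACA box in capitals, which stood 2 to 4 bases before the 3′ end in 71 of 79 SNORA members of annotated strand and on the opposite strand in 5. SNORA12 (chr10:100237156-100237302, minus strand) lies in an intron of CWF19L1. The position of SNORA104 is chr19:14622213-14622351, and its strand was taken from the box alone.
SNORA12: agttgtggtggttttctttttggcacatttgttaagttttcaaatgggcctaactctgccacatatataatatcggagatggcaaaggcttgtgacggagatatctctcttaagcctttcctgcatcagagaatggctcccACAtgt
SNORA104: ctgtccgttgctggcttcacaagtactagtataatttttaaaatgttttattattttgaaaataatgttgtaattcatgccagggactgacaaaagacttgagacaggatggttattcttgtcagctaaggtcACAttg
SNORA12 stood at 21.8, 17.6, 20.05 and 17.9 CPM in controls, 30.0 and 28.7 in the siH2A.Z.1 libraries, 19.1 and 18.6 in the siH2A.Z.2 libraries and 27.99 and 28.1 in the combined libraries. It rose upon H2A.Z.1 depletion by 0.60 ± 0.13 on the log2 scale (edgeR adjusted p = 0.0152) and upon combined depletion by 0.54 ± 0.12 (adjusted p = 0.0296), with no overlap with controls. CWF19L1 was called in no depletion, at 39.0 to 51.4 CPM in controls and 47.7 and 46.1 in the combined libraries. In the siH2A.Z.1 libraries CWF19L1 lay above every control, at 57.4 and 54.5 CPM. SNORA104 stood at 32.4, 29.4, 21.2 and 26.0 CPM in controls, 15.4 and 12.7 in the siH2A.Z.1 libraries, 36.3 and 40.2 in the siH2A.Z.2 libraries and 23.9 and 23.8 in the combined libraries. SNORA104 fell by 0.96 ± 0.21 upon H2A.Z.1 depletion (adjusted p = 0.0156), where it was also lower than upon H2A.Z.2 depletion, with a log2 difference of -1.45 ± 0.19 (adjusted p = 0.000637), against the direction of most members.

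Of the Cajal body guides, SCARNA10 and SCARNA9 rose upon H2A.Z.1 depletion. SCARNA10, which guides modification of U5 RNA, stood at 404, 349, 329 and 323 CPM in controls, 487 and 486 in the siH2A.Z.1 libraries, 359 and 386 in the siH2A.Z.2 libraries and 460 and 420 in the combined libraries. Its rise was 0.47 ± 0.11 on the log2 scale (edgeR adjusted p = 0.0246), and its host NCAPD2 was not called. SCARNA9 stood at 1.78 to 3.09 CPM in controls and at 3.68 and 6.12 in the siH2A.Z.1 libraries, a rise of 1.00 ± 0.30 (adjusted p = 0.0461). It also lay above every control at 5.09 and 4.25 in the siH2A.Z.2 libraries and 4.56 and 3.96 in the combined libraries, where the log2 fold changes of 0.94 (adjusted p = 0.194) and 0.82 (adjusted p = 0.0741) were not called. SCARNA21 had a log2 fold change of 0.17 (adjusted p = 0.596) in the comparison in which its host CHD3, a chromatin remodeller, fell by 1.11 (adjusted p = 0.0022).

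Of 144 genes listed for the proteins that make, bind or degrade these RNAs, 141 were tested. Upon H2A.Z.1 depletion 16 rose and 10 fell (18.4%, against 28% of all genes called), upon combined depletion 6 rose and 11 fell (12.1% against 17.1%), and upon H2A.Z.2 depletion none was called, against 0.785% of all genes. Between the controls 9 were higher and 15 lower with siCtrl 4 (17.0% against 34.5%). In the list for snRNA and polymerase III transcription, 3 of 29 rose and 4 fell upon H2A.Z.1 depletion, a share of 24.1% near that of all genes. POLR3G, a polymerase III subunit, fell by 1.76 on the log2 scale (edgeR adjusted p = 0.000966), GTF3C2 of transcription factor TFIIIC fell by 0.95 and SNAPC1 of the snRNA activating complex rose by 0.65. Upon combined depletion POLR3G fell by 1.66, GTF3C2 fell by 0.71 and SNAPC1 rose by 1.07. SRP19 of the signal recognition particle rose by 0.90 and INTS4 of the Integrator complex rose by 0.80 upon H2A.Z.1 depletion, while GEMIN2 of the snRNP assembly complex fell by 0.77. In the direct comparison 17 partner genes were higher and 9 lower upon H2A.Z.1 depletion (18.4% against 32.2% of all genes). FBL, the methyltransferase of C/D box particles, was higher there by 0.85 on the log2 scale (edgeR adjusted p = 0.000762). It was the only 1 called of the 4 genes listed for these particles. FBL stood at 125 to 150 CPM in controls, 171 and 156 in the siH2A.Z.1 libraries and 86.4 and 95.0 in the siH2A.Z.2 libraries.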

How the data were processed

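Per the labels and the study's methods, strand-specific libraries of rRNA-depleted total RNA were sequenced as 80-base pairs, reads were aligned to hg38 with STAR, and the authors deposited raw counts per RefSeq gene from HTSeq 0.6.1 (union mode). Reads that overlap 2 genes or map to several places are dropped by such counting, which touches small RNAs in exons and near-identical copies. The authors' DESeq2 tables, which hold fold changes and p-values of their own comparisons, were not used.

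From the counts, CPM with TMM factors and quasi-likelihood tests were computed in edgeR 4.0.16 (R 4.3.3), after filterByExpr, on the whole table, with Benjamini-Hochberg adjustment. Each depletion was tested on its 2 libraries and the 4 pooled control libraries. The control siRNAs were compared in a fit of all 10 libraries in 5 groups, and the single depletions in a fit of 4 groups. Standard errors are the log2 fold change over the root of F. Totals are in the report, and the number of libraries limits the precision. On simulated counts for the H2A.Z.1 comparison (15696 genes), 76% of 2-fold and 34% of 1.5-fold changes were called. The simulation gave every gene the same dispersion and no difference between the control siRNAs. Members varied more between replicates than other genes, so these rates were not shown to hold for them. Alternatives covered scaling, filters, DESeq2 1.42.0, a replicate block, each control alone, and single libraries left out.

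Positions came from RefSeq and hosts from GENCODE 44. By this annotation 189 members lay in an intron, 44 overlapped an exon and 14 had no host. Strand and host were missing for 11 members. Named members were those that are no SNORA, SNORD or SCARNA gene, the 10 most abundant, up to 6 called in each direction per comparison, and those beside the minimum, with their hosts, the siRNA targets and up to 6 called partner genes per comparison. Other genes were chosen after their values were seen: the snoRNAs of GAS5, the SNORD116 array with its neighbours, and the hosts that moved over 2-fold. One of the lineage markers is not reported here. The members and lists were chosen with earlier results of these data known.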

Additional observations from a re-analysis of the deposited data

Results flagged for a closer look

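Among the 4 control libraries, RN7SL1 stood at 34331.5 CPM in the second siCtrl 4 library, apart from 39972 to 40609.7 CPM in the other 3. It was the only one of 54 quantities tested in which a control library lay so far from the rest, and chance gives such a gap in about 1 of 20.

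Of the 37 members called between the single depletions by the direct edgeR test, the 6 largest rises and the 2 falls stood as follows. Higher upon H2A.Z.1 than upon H2A.Z.2 depletion on the log2 scale were SNORD18A by 2.06 (adjusted p = 0.0356), SNORD1A by 1.69 (adjusted p = 0.0031), SNORD116-23 by 1.56 (adjusted p = 0.0420), RNU4-1 by 1.49 (adjusted p = 0.0297), RNU4-2 by 1.45 (adjusted p = 0.0339) and SNORD17 by 1.31 (adjusted p = 0.000742). Lower were SNORA104, with a log2 difference of -1.45 (adjusted p = 0.000637), and SNORD3D, with -1.20 (adjusted p = 0.0237). SNORD17, SNORD1A and SNORA104 were called without each library in turn. SNORD18A, at 0.227 to 1.252 CPM, and SNORD116-23, at 0.134 to 0.919 CPM, rest on few counts, and both lost the call without any 1 of the 4 libraries of the single depletions.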

How the results depend on the processing

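Members called upon H2A.Z.1 depletion numbered 9, and 4 with the replicate block, 26 against siCtrl 3 alone, 36 against siCtrl 4 alone and 0 to 8 without single libraries. Upon H2A.Z.2 depletion they numbered 1, and 0 with RLE, upper-quartile or library size scaling, with totals without the members and with the replicate block, 5 with DESeq2, 11 and 43 against siCtrl 3 and siCtrl 4 alone and 0 without any single library. Upon combined depletion they numbered 6, and 2 with the replicate block, 3 with the crossed pairing (chosen after seeing the data), 28 and 55 against siCtrl 3 and siCtrl 4 alone, 2 among members of at least 500 counts and 0 to 5 without single libraries. Between the controls they numbered 11, and 35 without a low-count filter, 3 with DESeq2, 19 with the replicate block, 6 among members of at least 500 counts, 7 among those over no exon and 3 to 31 without single libraries. Between the single depletions they numbered 37, also with the block, and 9 to 51 without single libraries. The median log2 difference of the members between the controls was -0.10 without the second siCtrl 3 library and -0.10 to 0.16 over single libraries left out. The causes were not tested. No share of all genes is set beside these counts, so they are no result about the members. Neither labels nor methods say that equal replicate numbers mark a shared batch. Over all genes, libraries of equal number correlated at 0.15 to 0.43 among the other conditions and at -0.40 to -0.11 with combined depletion, a hint from the data and not from the design. The members went otherwise. Over them the correlations with combined depletion ran from -0.07 to 0.29, and those with siH2A.Z.1 from -0.15 to -0.01.

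Of 2552 values of named members under alternatives, 2288 kept their side of the threshold, 165 lost the call and 99 gained it. No called value changed direction, whereas 118 uncalled values changed sign. Partner genes called ranged from 3 to 57 upon H2A.Z.1, 0 to 24 upon H2A.Z.2 and 0 to 50 upon combined depletion. With 2 libraries a condition and 132 members of 100 to 500 counts, small differences may have been missed.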
